A study of Mus musculus with 9 samples.

Results

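The AP-1 and EGR immediate early factors described here are 10 genes, taken as the rows of the count table whose gene name was Fos, Fosb, Fosl1, Fosl2, Jun, Junb, Jund, Egr1, Egr2 or Egr3. They are 10 of 44806 entries, each name stood in the table, and all 10 passed the filter on low counts that left 16596 genes for testing. The RNA came from mouse tumours grown from MB49 cells, an established murine bladder carcinoma line, made to overexpress HER2, a receptor tyrosine kinase. Every group carried these same cells. Mice received PBS (phosphate-buffered saline), Lipo-BiTE or Lipo-TriTE, with 3 libraries per group. By their names the agents are lipid formulations of a bispecific and of a trispecific T cell engager, a class of molecule that links T cells to target cells; neither their targets nor dose and schedule are stated. PBS is a vehicle without lipid carrier, so the effect of the carrier and that of the engager cannot be told apart. Host strain, age and sex, and whether each library is a separate mouse, are not stated, so the p-values measure only the spread between these libraries. The series text speaks of CD3+ T cells sorted at the end of the experiment, whereas by label and extraction steps the material was whole tumour, frozen and homogenised. Krt8, a keratin of epithelial cells, lay between 158.7 and 478.8 CPM (counts per 1000000 counts of a library, on totals scaled by the TMM method) in the 9 libraries, and Cd3e, a chain of the T cell receptor complex, between 2.821 and 105.8. Both genes were therefore measured in all 9 libraries, with Krt8 above Cd3e in each, and the values below are described as those of tumour tissue. In such tissue, more cells of a type and more RNA per cell cannot be told apart.

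AP-1 is a dimer of basic leucine zipper proteins. FOS proteins (Fos, Fosb, Fosl1, Fosl2) do not pair with themselves and bind DNA as partners of JUN proteins (Jun, Junb, Jund), while JUN proteins can also pair among themselves. EGR proteins are zinc finger factors that bind GC-rich sites alone. Most of these genes are immediate early genes: growth factors, T cell receptor signals, cytokines and cell stress start their transcription through MAP kinases without new protein synthesis, and the transcripts decay quickly. In T cells AP-1 works with NFAT on cytokine genes, and Egr2 and Egr3 are known for restraining activation. In carcinoma cells Fosl1, which encodes FRA-1, is known for its link to invasive growth.

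The upstream sequences of 3 members are shown because they hold letters of the kind through which these genes are known to be switched on. Windows of 250 bases upstream of RefSeq start sites (GRCm38.p6) were at hand for 7 of the 10 members, in 11 windows; Fosl1, Egr1 and Egr3 are not shown. The Jun stretch is chr4:95052223-95052332 on the minus strand, and its capitals mark TGACATCA, a variant of the AP-1 site. The Fos stretch is chr12:85473780-85473889 on the plus strand, and its capitals mark TGACG, the core of a cyclic AMP response element (CREB and ATF site). The Egr2 stretch is chr10:67537789-67537818 on the plus strand, and its capitals mark a CArG box, the site of serum response factor (SRF), followed by TGACG read on the other strand.
Jun: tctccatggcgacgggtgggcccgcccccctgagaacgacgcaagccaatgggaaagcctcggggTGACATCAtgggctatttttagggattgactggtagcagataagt
Fos: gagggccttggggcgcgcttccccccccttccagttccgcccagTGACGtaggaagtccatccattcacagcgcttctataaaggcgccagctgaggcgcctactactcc
Egr2: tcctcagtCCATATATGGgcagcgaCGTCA

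Counted back from the start site, TGACATCA of Jun lay at -45 to -38 and TGACG of Fos at -66 to -62, with a second TGACG at -129 to -125 outside the stretch shown. In Egr2, for the start site at base 67537869 of chromosome 10, the CArG box lay at -72 to -63 and the nearer TGACG at -55 to -51. Counted from another start site of Egr2, at base 67537930, the same box lay at -133 to -124. A different CArG box, CCTTTTTTGG, lay at -72 to -63 from the Egr2 start site at base 67537566. TGACG was also found at -60 to -56 in Fosb and at -106 to -102 in Junb, and none of the letters searched were found in Fosl2 or Jund. Both strands were searched. Over 32851 windows of the same length, TGACATCA was present in 2.93%, the CArG box in 1.47% and TGACG in 17.8%. The further sites searched were TGACTCA (in 4.46% of windows), TGACGTCA (1.55%, which holds TGACG) and GCGTGGGCG, an EGR site (0.536%), and 0 of the 7 members held any of them in these windows. These matches describe letters in a window and not bound sites.

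In the C57BL/6NJ gene models of the table, all 10 members are protein coding. Fos is at chr12:88741461-88744847, Jun at chr4:98755429-98758617, Fosl1 at chr19:2470854-2480774 and Egr2 at chr10:69737514-69745556. Junb and Jund both lie on chromosome 8, at chr8:89205616-89207455 and chr8:73659962-73662838. Jun overlaps Junos, an antisense gene on the opposite strand; whether counting used strand is not stated, so reads of the overlap cannot be told apart, but Junos held 644 counts over all libraries, or 0.799% of those of Jun. The other members, in the same models, are Fosb at chr7:18160456-18167782, Fosl2 at chr5:32004578-32026626, Egr3 at chr14:67613921-67616633 and Egr1 on chromosome 18.

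The libraries held 13152783 to 20273548 counts, and 3 counts, the limit for a gene seen at 0, came to 0.146 to 0.237 CPM. No member was near that limit. PBS 1 stood apart from PBS 2 and PBS 3 on the second principal component (58.39 against 0.771 and 1.951), and it had the lowest neutrophil marker sum. In Lipo-BiTE, replicate 1 had the highest and replicate 3 the lowest sums of macrophage, neutrophil, T cell, B cell, dendritic cell and NK cell markers. Counts of the factors are given below with and without them.

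In Lipo-BiTE tumours 7 of the 10 factors rose against PBS, and none passed the test as lower: Fosl2 (5.80-fold), Egr1 (5.68-fold), Jun (4.82-fold), Junb (4.26-fold), Fos (3.68-fold), Egr2 (3.22-fold) and Jund (2.56-fold). In the same comparison 13.8% of all tested genes were called higher and 3.22% lower. In Lipo-TriTE tumours 4 factors rose against PBS, Fosl2, Junb, Fos and Egr2, by 2.23-fold to 3.08-fold, and Fosl1 fell, with 18.9% of tested genes called higher and 14.8% lower. Between the treatments, Egr1, Jun, Fosl1 and Fosb were lower in Lipo-TriTE than in Lipo-BiTE, by 2.04-fold to 3.19-fold, and 0 were higher, where 5.21% of tested genes were called lower and 4.88% higher. Calls are those of the edgeR quasi-likelihood test at a Benjamini-Hochberg adjusted p under 0.05 over all tested genes. The median log2 fold change over the 10 members was 1.78, 0.82 and -0.89 in these 3 comparisons, and that over all tested genes -0.02, 0.00 and -0.01. The comparisons share groups: both treatments are set against the same 3 PBS libraries.

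**Figure D1:**
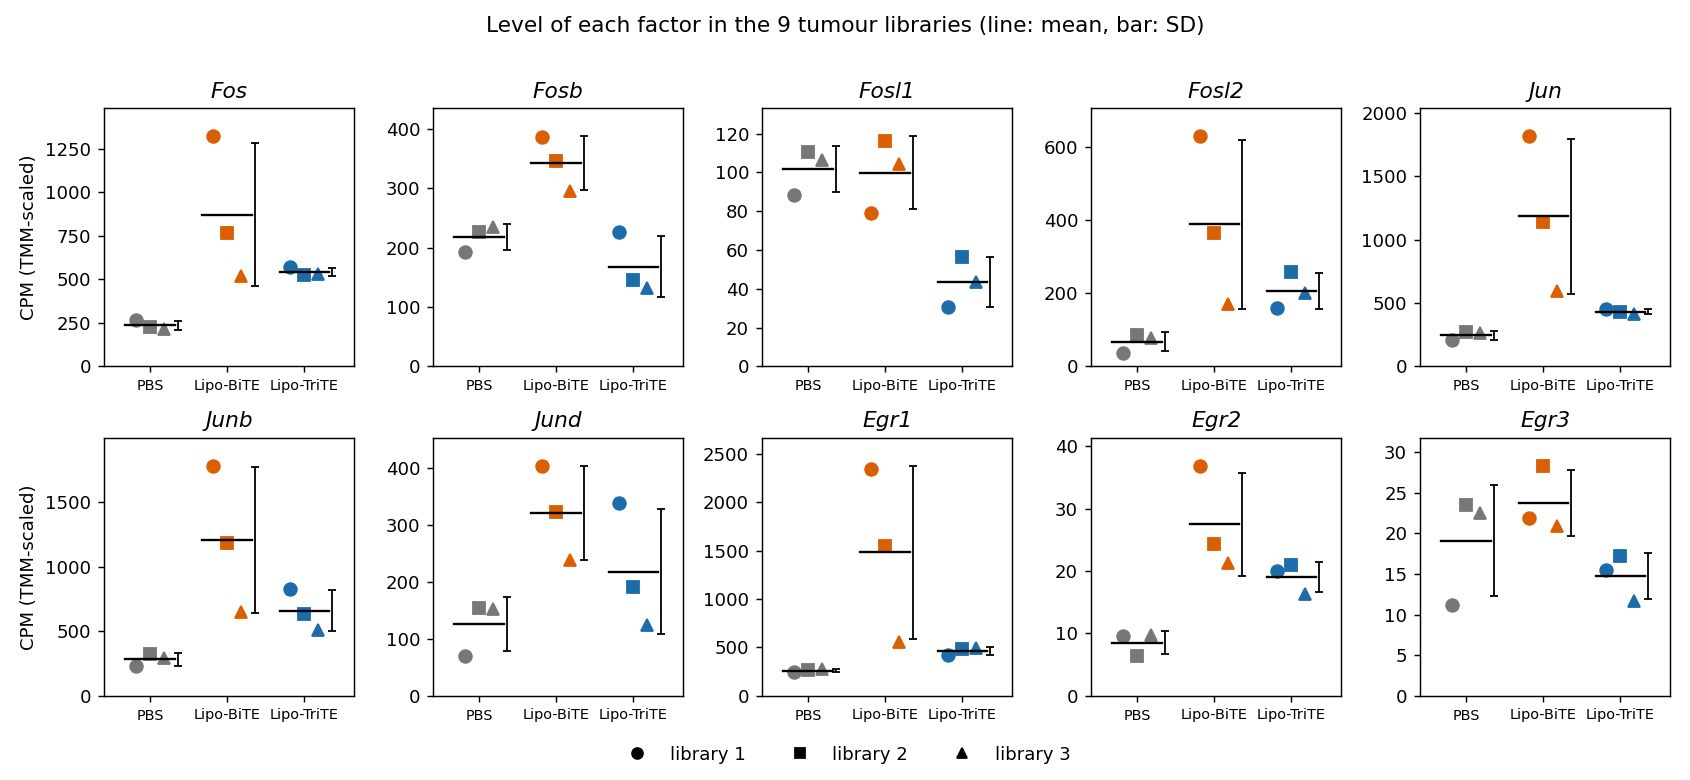
Level of each factor in CPM on TMM-scaled totals (y axis, from 0, a scale for each gene) in the 3 groups (x axis); points are single libraries, with the shape giving the replicate number, lines are means and bars are SD (n = 3). Fos, Fosl2, Jun, Junb, Jund, Egr1 and Egr2 have a Lipo-BiTE mean above the PBS mean, with replicate 1 highest in Lipo-BiTE. All of these but Jund have their largest SD in Lipo-BiTE, whereas Fosl1 is lowest in Lipo-TriTE.

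Fos, the partner that forms the classical AP-1 dimer with Jun, was at 266.6, 227.7 and 215.8 CPM in the PBS libraries, 1324, 767.5 and 521.9 CPM in the Lipo-BiTE libraries and 570.5, 527.6 and 531.3 CPM in the Lipo-TriTE libraries. Every treated library was above every PBS library, and the 3 Lipo-TriTE libraries lay close together at the low end of the Lipo-BiTE range. The log2 fold change was 1.88 ± 0.28 (SE) for Lipo-BiTE against PBS (edgeR adjusted p = 0.00129) and 1.20 ± 0.28 for Lipo-TriTE against PBS (edgeR adjusted p = 0.00722). The difference between the treatments, -0.68 ± 0.27, did not pass the test (edgeR adjusted p = 0.141), but did so without Lipo-BiTE 3 (edgeR adjusted p = 0.0294).

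Fosl2, which encodes FRA-2, was at 36.89, 85.46 and 78.12 CPM in PBS, 629.4, 363.5 and 170.2 CPM in Lipo-BiTE and 160.5, 258.4 and 199.4 CPM in Lipo-TriTE. Both treated groups lay above PBS, and they overlapped with each other. Fosl2 rose by 2.54 ± 0.46 on the log2 scale in Lipo-BiTE (edgeR adjusted p = 0.00386) and by 1.62 ± 0.44 in Lipo-TriTE (edgeR adjusted p = 0.0174). Between the treatments its log2 difference was -0.91 ± 0.43 (edgeR adjusted p = 0.216). Without PBS 1, in which Fosl2 was lowest, the Lipo-TriTE value was 1.31 and its call was lost (edgeR adjusted p = 0.0632), as it was with no filter on low counts (edgeR adjusted p = 0.119).

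Fosl1 was the FOS member that fell in Lipo-TriTE against PBS. It was at 88.41, 110.7 and 106.3 CPM in PBS, 79.23, 116.1 and 104.6 CPM in Lipo-BiTE and 30.64, 56.55 and 43.28 CPM in Lipo-TriTE. The Lipo-TriTE libraries lay below all others, and PBS and Lipo-BiTE overlapped throughout. Fosl1 fell by 1.23 ± 0.22 on the log2 scale against PBS, or 2.34-fold lower (edgeR adjusted p = 0.00211), and by 1.20 ± 0.22 against Lipo-BiTE, or 2.30-fold lower (edgeR adjusted p = 0.0103). Both calls were kept when any library was left out in turn, with edgeR adjusted p of 0.00201 to 0.00994 and of 0.00545 to 0.0489. Against PBS the Lipo-BiTE value was -0.03 ± 0.22, and its sign turned when some libraries were left out.

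Fosb, which like Fos can activate transcription with a JUN partner, was at 192.6, 225.9 and 234.7 CPM in PBS, 386.4, 346.4 and 295.8 CPM in Lipo-BiTE and 226.7, 145.6 and 131.3 CPM in Lipo-TriTE. All Lipo-BiTE libraries were above all others, and Lipo-TriTE 1 lay within the PBS range while Lipo-TriTE 2 and 3 lay below it. Fosb was 2.04-fold lower in Lipo-TriTE than in Lipo-BiTE, a log2 difference of -1.03 ± 0.21 (edgeR adjusted p = 0.0135); the call was lost without Lipo-BiTE 2 (adjusted p = 0.0559) or without Lipo-TriTE 2 (adjusted p = 0.0535). Against PBS the log2 differences were 0.66 ± 0.21 in Lipo-BiTE (edgeR adjusted p = 0.0505) and -0.38 ± 0.21 in Lipo-TriTE (edgeR adjusted p = 0.185). Of these, the former passed under 6 other settings, DESeq2 among them (adjusted p = 0.0274), and the latter passed without Lipo-TriTE 1 (edgeR adjusted p = 0.0153).

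Jun, the founding member of the JUN family, was at 206, 269.9 and 260.7 CPM in PBS, 1817, 1139 and 597.4 CPM in Lipo-BiTE and 455.3, 427.2 and 411.4 CPM in Lipo-TriTE. The 3 groups did not overlap, with PBS lowest and Lipo-BiTE highest. On the log2 scale Jun differed by 2.27 ± 0.33 for Lipo-BiTE against PBS (edgeR adjusted p = 0.00124). For Lipo-TriTE against PBS the difference was 0.81 ± 0.32, which did not pass the test (edgeR adjusted p = 0.0713). This difference passed by DESeq2 (adjusted p = 0.0239) and on total counts (edgeR adjusted p = 0.0432). It also passed with no filter on low counts (edgeR adjusted p = 6.75e-05) and in the fit of only these 2 groups (edgeR adjusted p = 0.00253). With the other scaling or filter, no robust estimation or the replicate block it did not pass (edgeR adjusted p of 0.054 to 0.0924). Jun was 2.75-fold lower in Lipo-TriTE than in Lipo-BiTE (log2 difference -1.46 ± 0.32, edgeR adjusted p = 0.0206). That call was lost when Lipo-BiTE 2 or any of the 3 Lipo-TriTE libraries was left out, with adjusted p of 0.0533 to 0.0728.

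Junb, which can dampen Jun activity and is prominent in activated lymphocytes, was at 228, 325.3 and 296.2 CPM in PBS, 1784, 1185 and 651.4 CPM in Lipo-BiTE and 829.5, 634.8 and 512.9 CPM in Lipo-TriTE. Both treated groups lay above PBS and overlapped with each other. Junb had a log2 fold change of 2.09 ± 0.33 for Lipo-BiTE (edgeR adjusted p = 0.00199) and 1.22 ± 0.32 for Lipo-TriTE (edgeR adjusted p = 0.0156) against PBS, and -0.87 ± 0.32 between the treatments (edgeR adjusted p = 0.115). Without PBS 1 the Lipo-TriTE call was lost (edgeR adjusted p = 0.0652), and without Lipo-BiTE 3 the difference between the treatments passed (edgeR adjusted p = 0.0219).

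Jund, the JUN member that many tissues express without a stimulus, was at 70.89, 153.8 and 153.1 CPM in PBS, 404.4, 323.3 and 238.2 CPM in Lipo-BiTE and 338.9, 190.8 and 124.6 CPM in Lipo-TriTE. Lipo-BiTE lay above PBS, and Lipo-TriTE spread across the ranges of both other groups. The log2 fold change was 1.35 ± 0.39 for Lipo-BiTE against PBS (edgeR adjusted p = 0.0376), and this call was lost without PBS 1, PBS 2, PBS 3, Lipo-BiTE 1 or Lipo-BiTE 2, with adjusted p of 0.0699 to 0.128, and with no filter on low counts (adjusted p = 0.181). The Lipo-TriTE values were 0.79 ± 0.38 against PBS (edgeR adjusted p = 0.139) and -0.56 ± 0.38 against Lipo-BiTE (edgeR adjusted p = 0.396).

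Egr1, a factor induced within minutes by many stimuli, was at 244, 263.5 and 276.7 CPM in PBS, 2343, 1552 and 556.1 CPM in Lipo-BiTE and 418.7, 482.2 and 495.9 CPM in Lipo-TriTE. The groups did not overlap. The spread within Lipo-BiTE was the widest of the members, with the highest library 4.21 times the lowest, against 1.13 times in PBS. The log2 fold change was 2.51 ± 0.40 for Lipo-BiTE against PBS (edgeR adjusted p = 0.00206) and 0.83 ± 0.38 for Lipo-TriTE against PBS, which did not pass (edgeR adjusted p = 0.12). Egr1 was 3.19-fold lower in Lipo-TriTE than in Lipo-BiTE (log2 difference -1.67 ± 0.39, edgeR adjusted p = 0.0251). That call was lost when Lipo-BiTE 2 or any of the 3 Lipo-TriTE libraries was left out (adjusted p of 0.067 to 0.0842), with no filter on low counts (adjusted p = 0.103) and in the fit of only these 2 groups (adjusted p = 0.0569). In the fit of only Lipo-TriTE and PBS, the difference from PBS passed (edgeR adjusted p = 0.00139).

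Egr2, a brake on T cell activation that macrophages also express, was at 9.576, 6.374 and 9.684 CPM in PBS, 36.93, 24.29 and 21.31 CPM in Lipo-BiTE and 19.96, 20.94 and 16.33 CPM in Lipo-TriTE. The 3 groups did not overlap, with Lipo-TriTE between the others. On the log2 scale Egr2 rose by 1.69 ± 0.26 in Lipo-BiTE (edgeR adjusted p = 0.00136) and by 1.16 ± 0.26 in Lipo-TriTE (edgeR adjusted p = 0.0056) against PBS; neither call was lost when a library was left out. Between the treatments the value was -0.53 ± 0.25 (edgeR adjusted p = 0.209).

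Egr3, a close relative of Egr2 with a like role in T cells, was at 11.21, 23.55 and 22.46 CPM in PBS, 21.86, 28.36 and 20.87 CPM in Lipo-BiTE and 15.54, 17.2 and 11.66 CPM in Lipo-TriTE. PBS overlapped with both treated groups, while the Lipo-TriTE libraries lay below those of Lipo-BiTE. No comparison passed: the log2 differences were 0.31 ± 0.28 (edgeR adjusted p = 0.473) and -0.37 ± 0.28 (edgeR adjusted p = 0.344) against PBS, for Lipo-BiTE and Lipo-TriTE, and -0.68 ± 0.28 between the treatments (edgeR adjusted p = 0.154). Without PBS 1, the lowest PBS library, the Lipo-TriTE value against PBS was -0.66 and passed (edgeR adjusted p = 0.0494).

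**Figure D2:**
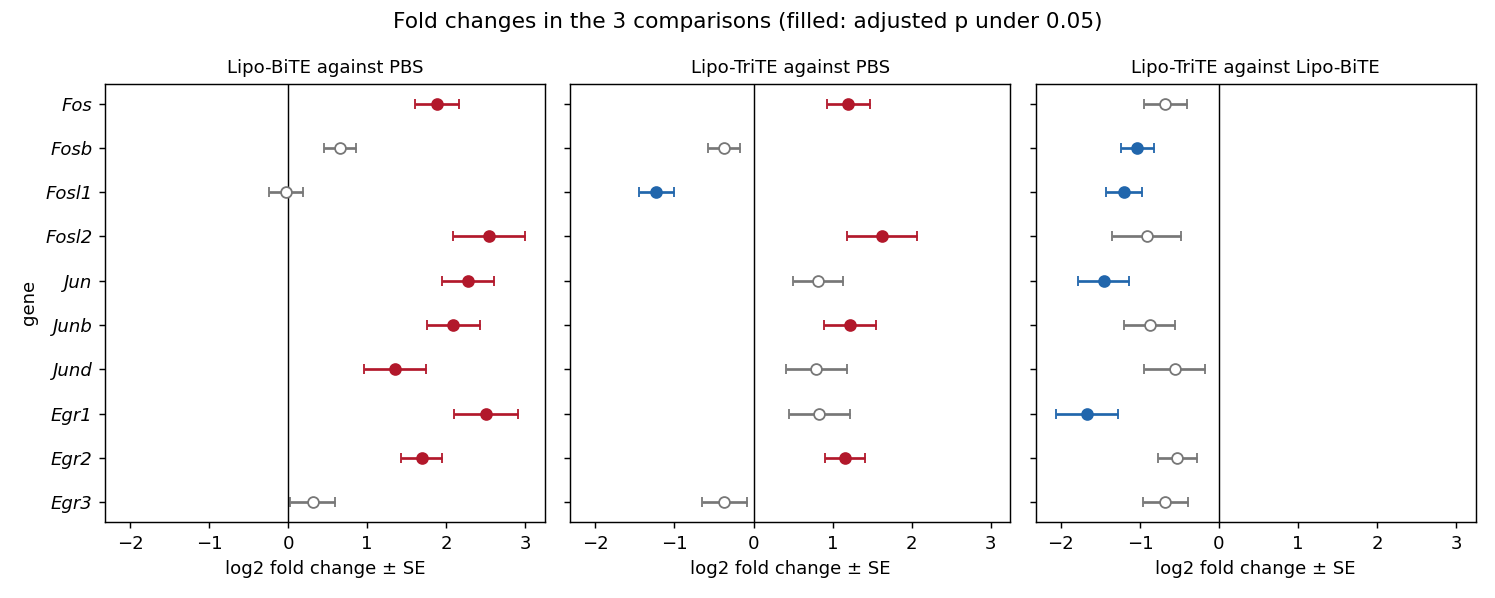
Log2 fold change ± SE (x axis) of the 10 factors (y axis) in the 3 comparisons; filled points passed the edgeR quasi-likelihood test at an adjusted p under 0.05, red for higher and blue for lower, and open points did not. Calls number 7 higher in Lipo-BiTE against PBS, 4 higher and 1 lower in Lipo-TriTE against PBS, and 4 lower in Lipo-TriTE against Lipo-BiTE, where all 10 estimates are below 0.

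Taking the libraries without a test, 8 members had all Lipo-BiTE libraries above all PBS libraries and 0 had them below, where 22.7% and 19.4% of tested genes did. In Lipo-TriTE 6 members lay wholly above PBS and 1 wholly below, against 26% and 23.4% of tested genes. Lipo-TriTE lay wholly below Lipo-BiTE for 6 members and wholly above for 0, against 14.4% and 16.1% of tested genes. At an unadjusted edgeR p under 0.05 the counts were 8 higher and 0 lower, 5 higher and 1 lower, and 0 higher and 7 lower in the 3 comparisons. The share of all tested genes at that unadjusted threshold is not given, so such counts stand without a background here and below. By DESeq2 at an adjusted p under 0.05 the member counts were 8 and 0, 5 and 1, and 0 and 4. Over all genes DESeq2 called 2669 higher and 751 lower, 3757 and 2204, and 1572 and 1075 in the same comparisons. Without PBS 1 and Lipo-BiTE 1 together the adjusted counts were 6 higher for Lipo-BiTE, with Jund lost, 4 higher and 2 lower for Lipo-TriTE against PBS, and 4 lower between the treatments. When libraries were left out one after the other, the number higher in Lipo-TriTE against PBS was 2 without PBS 1 and 4 otherwise. The number lower in that comparison was 2 without PBS 1 or without Lipo-TriTE 1. The number lower in Lipo-TriTE against Lipo-BiTE was least stable: it was 1 without Lipo-BiTE 2 or Lipo-TriTE 2, 2 without Lipo-TriTE 1 or Lipo-TriTE 3, 4 without Lipo-BiTE 1 and 6 without Lipo-BiTE 3. The counts over all tested genes moved as well: between the treatments 865 were lower, with 158 to 1031 when a library was left out, and 810 were higher, with 276 to 901, the fewest of both without Lipo-BiTE 2. In Lipo-BiTE against PBS 534 genes were lower, with 80 without Lipo-BiTE 1 and 971 without Lipo-BiTE 3.

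Within Lipo-BiTE the factors were ordered alike: 8 of the 10 had replicate 1 above replicate 2 above replicate 3, and the exceptions were Fosl1 and Egr3, both highest in replicate 2. In replicate 3, the lowest for most, 8 of the 10 were still above every PBS library. The same order was seen in the summed CPM of every immune marker list. Macrophage and monocyte markers were at 3140, 1415 and 1084 in Lipo-BiTE 1, 2 and 3, neutrophil markers at 7154, 3282 and 1273 and T cell markers at 581.7, 396.3 and 292. B cell markers were at 31.33, 27.38 and 14.03, dendritic cell markers at 76.79, 64.53 and 56.43 and NK cell markers at 140.6, 102.8 and 76.94. The sum of epithelial and tumour cell markers ran the other way, at 623.4, 746.5 and 862.5 CPM. So did those of fibroblast markers (1370, 1693 and 2312 CPM) and of endothelial markers (220.4, 236.4 and 238.1 CPM). Csf1r, the receptor for macrophage growth factor, was at 636.7, 300.9 and 199.1 CPM in these libraries. The part of these cells in the levels of the factors was not tested.

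Between groups the marker sums did not all follow the factors. Macrophage and monocyte markers (11 of 12 in the table) summed to 166.5 to 207.6 CPM in PBS, 1084 to 3140 in Lipo-BiTE and 777.2 to 1251 in Lipo-TriTE; by edgeR 0 of the 11 were called between the treatments, with 3 lower at an unadjusted p under 0.05 and 3 lower by DESeq2. Neutrophil markers (9 of 9) summed to 154.3 to 346.5, 1273 to 7154 and 1489 to 4783 CPM, with 0 of 9 called between the treatments by edgeR or DESeq2 and 0 at an unadjusted p under 0.05. T cell markers (12 of 12) summed to 60.35 to 76.08, 292 to 581.7 and 1256 to 2128 CPM, and all 12 were called higher in Lipo-TriTE than in Lipo-BiTE, where no factor was. B cell markers (8 of 8) summed to 8.436 to 11.36, 14.03 to 31.33 and 449 to 1282 CPM, with all 8 called higher in Lipo-TriTE than in Lipo-BiTE. Dendritic cell markers (8 of 8) summed to 24.83 to 33.7, 56.43 to 76.79 and 287.7 to 371.2 CPM, and NK cell markers (6 of 6) to 34.89 to 43.44, 76.94 to 140.6 and 209 to 336.9 CPM. Epithelial and tumour cell markers (7 of 8) summed to 925.1 to 999, 623.4 to 862.5 and 405.4 to 686.6 CPM, and fibroblast markers (8 of 8) to 2079 to 3171, 1370 to 2312 and 935.8 to 1458 CPM. Fosl1 was low in the group in which these last sums reached their lowest values, but the genes of both lists did not all follow their sums. Of 6 tested epithelial and tumour cell markers, 1 was higher and 3 lower in Lipo-TriTE against PBS, and 0 higher and 1 lower between the treatments. Of 8 fibroblast markers, 0 were higher and 4 lower against PBS. Between the treatments 1 fibroblast marker was higher in Lipo-TriTE and 0 lower, with a median log2 difference of 0.626. Markers at 0 in some library were Cd79a, Itgam, Krt14, Lum, Tek and Emcn. The part of any of these cell types in the differences of the factors was not tested.

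**Figure D3:**
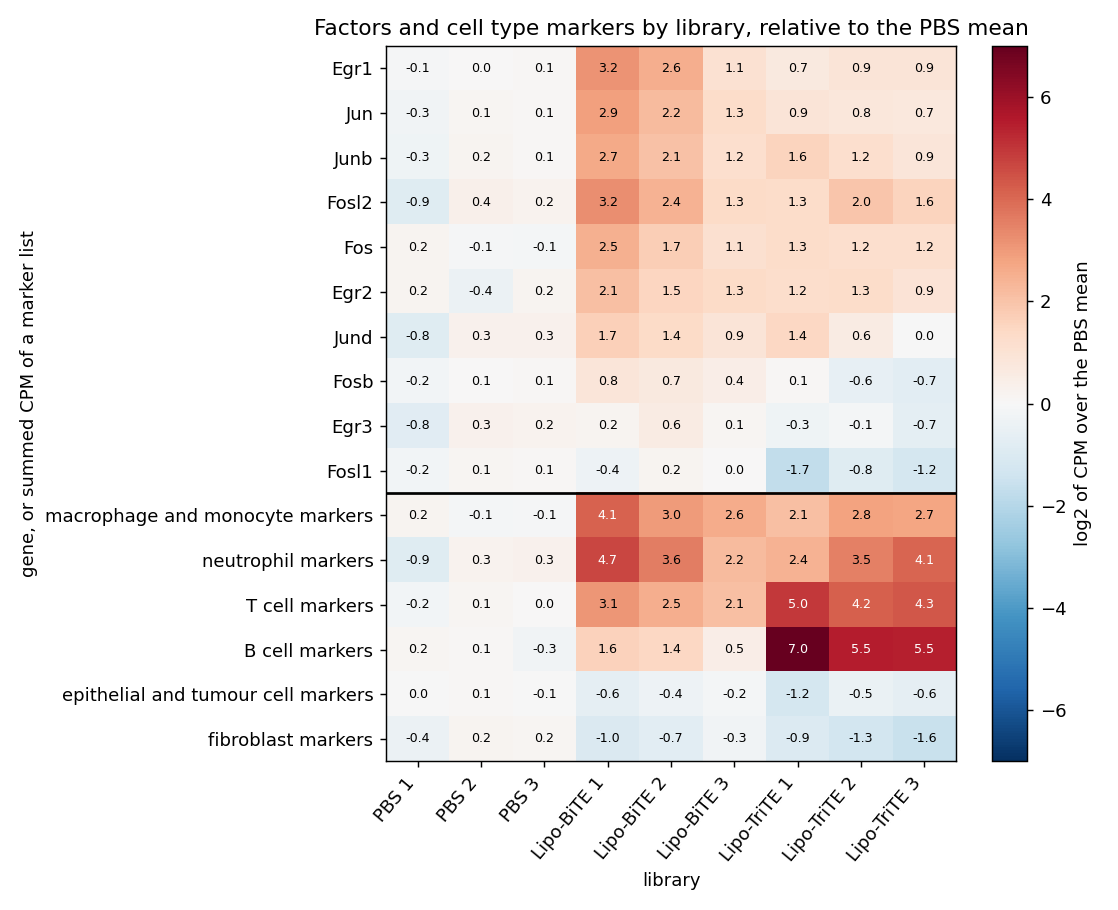
Log2 of CPM over the PBS mean (colour and printed number) for the 10 factors and for the summed CPM of 6 marker lists (rows) in the 9 libraries (columns). Egr1, Jun, Junb and Fosl2 are darkest in Lipo-BiTE 1, as are macrophage and neutrophil markers, whereas T cell and B cell markers are darkest in Lipo-TriTE.

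Levels of different genes were compared per kilobase of the gene model (CPM per kb), since longer transcripts give more reads. In PBS, Junb was highest at 153.9 ± 27.1 CPM per kb (SD, n = 3), followed by Fos at 100.6 ± 11.3 and Jun at 77.0 ± 10.8. Fosl1 (59.6 ± 6.92), Egr1 (58.3 ± 3.67), Fosb (58.1 ± 5.93) and Jund (43.8 ± 16.6) followed, and Egr3 (13.5 ± 4.83), Fosl2 (6.89 ± 2.70) and Egr2 (2.52 ± 0.55) were lowest. In that order the ranges of mean ± SD of the neighbours from Jun to Jund, and of Egr3 and Fosl2, overlapped. These SD are between libraries and leave out that the genes were measured in the same libraries. In every PBS library Jun was above Fosl1, Fosb above Jund and Egr3 above Fosl2, while Fosl1, Egr1 and Fosb changed places. In Lipo-BiTE the order was Junb (655.9 ± 308), Jun (371.4 ± 191.6), Fos (370.3 ± 174.6), Egr1 (331.1 ± 199.8), Jund (111.9 ± 28.9), Fosb (91.4 ± 12.1), Fosl1 (58.6 ± 11.1), Fosl2 (40.0 ± 23.8), Egr3 (16.7 ± 2.87) and Egr2 (8.10 ± 2.44). There the ranges of mean ± SD of neighbours overlapped, except between Fosb and Fosl1 and between Egr3 and Egr2. Within libraries, Junb was above Jun in every one (969.7 and 569.7, 644.1 and 357.1, and 354 and 187.3 CPM per kb). Egr1 was likewise above Jund, Jund above Fosb and Fosl2 above Egr3 in every Lipo-BiTE library. Jun and Fos, Fos and Egr1, and Fosl1 and Fosl2 changed places between libraries. In Lipo-TriTE the order of means was that of Lipo-BiTE with Fos and Jun exchanged: Junb was at 358.2 ± 86.8, Fos at 230.9 ± 10.1, Jun at 135.3 ± 6.97, Egr1 at 103.9 ± 9.19, Jund at 75.8 ± 38.1, Fosb at 44.8 ± 13.7, Fosl1 at 25.5 ± 7.59, Fosl2 at 21.3 ± 5.08, Egr3 at 10.5 ± 2.01 and Egr2 at 5.61 ± 0.72 CPM per kb. The ranges of mean ± SD of the neighbours from Egr1 to Fosl2 overlapped. In every Lipo-TriTE library, however, Jund was above Fosb, Fosb above Fosl1 and Fosl1 above Fosl2, while Egr1 and Jund changed places.

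Summed per length, the FOS family was at 225.2 ± 5.26 CPM per kb in PBS, 560.3 ± 201.2 with Lipo-BiTE and 322.4 ± 15.3 with Lipo-TriTE. The JUN family was at 274.7 ± 54.1, 1139 ± 528.4 and 569.2 ± 131.8 CPM per kb, and the EGR family at 74.3 ± 8.06, 355.9 ± 202.6 and 119.9 ± 8.46 CPM per kb. In each family the PBS libraries lay below all treated libraries. The make-up of the FOS sum differed between groups: Fos made up 44.8 ± 5.86% of it in PBS, 64.4 ± 7.18% with Lipo-BiTE and 71.7 ± 2.06% with Lipo-TriTE, while Fosl1 made up 26.4 ± 2.55%, 11.7 ± 5.19% and 7.96 ± 2.50%. Fosb stood at 25.8%, 17.2% and 13.8%, and Fosl2 at 3.05%, 6.71% and 6.62%. The JUN family kept Junb as its main member, at 56.2 ± 1.85%, 57.4 ± 0.61% and 62.8 ± 0.90%, with Jun at 28.3%, 32% and 24.4%. In the EGR family Egr1 made up 78.8 ± 4.11%, 91.1 ± 5.04% and 86.6 ± 2.57%, Egr3 17.8 ± 4.99%, 6.12 ± 3.75% and 8.75 ± 1.82%, and Egr2 at most 5.33% in any library.

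**Figure D4:**
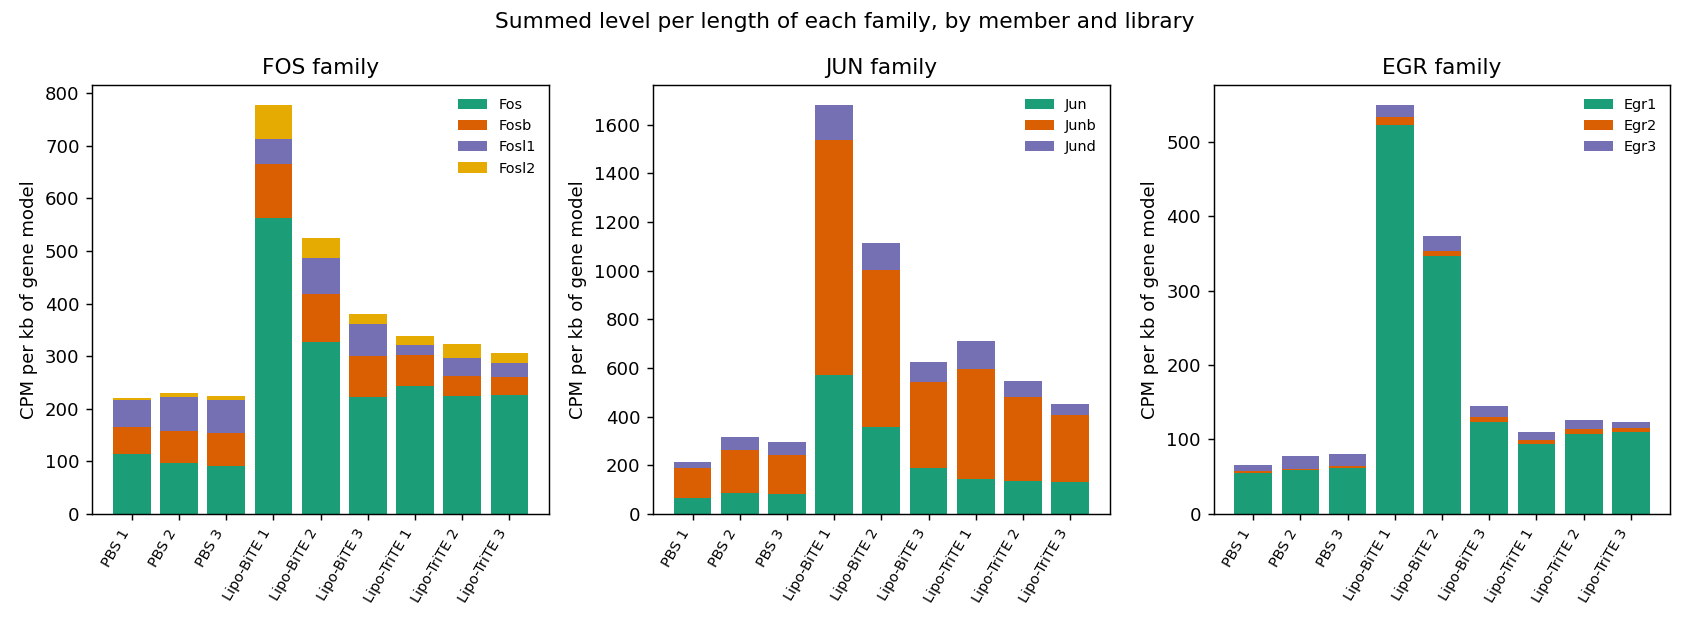
Summed level per length (CPM per kb of gene model, y axis from 0) of the FOS, JUN and EGR families in each library (x axis), with the members stacked by colour. Lipo-BiTE 1 has the tallest bar in each family; Fos takes a larger part of the FOS bar, and Fosl1 a smaller one, in the treated libraries than in PBS.

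Ratios of members were taken within each library, on CPM plus 0.5. The ratio of Fos to Fosl1 was 3.00, 2.05 and 2.03 in PBS, 16.6, 6.58 and 4.97 in Lipo-BiTE and 18.3, 9.26 and 12.1 in Lipo-TriTE. All treated libraries were above PBS, by a mean log2 difference of 1.81 for Lipo-BiTE and 2.46 for Lipo-TriTE. The exact two-sided permutation test gave p = 0.1 for both, the smallest that 3 against 3 libraries allow, and 0.36 after adjustment over the 9 ratio tests. Between the treatments the log2 difference was 0.64 (exact permutation p = 0.3, adjusted 0.386). The ratio of Junb to Jund was 3.20, 2.11 and 1.93 in PBS, 4.41, 3.66 and 2.73 in Lipo-BiTE and 2.45, 3.32 and 4.10 in Lipo-TriTE, with the groups overlapping (exact permutation p = 0.2, 0.2 and 0.7). The ratio of Egr1 to Egr2 was 24.3, 38.4 and 27.2 in PBS, 62.6, 62.6 and 25.5 in Lipo-BiTE and 20.5, 22.5 and 29.5 in Lipo-TriTE, again with overlap (exact permutation p = 0.3, 0.4 and 0.2). With 3 libraries a group, no ratio test can pass the threshold.

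The related genes were counted in 6 lists; their counts stand beside the shares of all tested genes called above. Of 15 tested AP-1 partners and related basic leucine zipper factors (16 listed), 7 rose in Lipo-BiTE and 6 rose in Lipo-TriTE against PBS, and in the latter 2 fell. Their median log2 fold change was 0.851 and 0.289 against PBS for Lipo-BiTE and Lipo-TriTE, and -0.364 between the treatments. The first count was 5 without PBS 1 and 11 without Lipo-BiTE 3, and the count of falls was 0 to 1 without any of PBS 1, 2 or 3 or Lipo-TriTE 1, 2 or 3. Batf, a partner of JUN proteins in lymphocytes, was at 2.37 ± 0.21 CPM in PBS, 12.6 ± 3.92 with Lipo-BiTE and 22.2 ± 4.39 with Lipo-TriTE (5.30-fold and 9.40-fold higher than PBS, edgeR adjusted p = 0.000765 and 4.05e-05). Bach2, a repressor that binds AP-1 type sites and is prominent in B cells and naive T cells, was at 1.88 ± 0.09, 4.56 ± 1.57 and 32.7 ± 17.2 CPM. It was 17.3-fold higher in Lipo-TriTE than in PBS and 7.17-fold higher than in Lipo-BiTE (edgeR adjusted p = 8.23e-05 and 0.00285), beside the B cell marker sums given above. Maf, a large factor of the same fold, rose 7.18-fold and 6.56-fold (edgeR adjusted p = 0.000765 and 0.000146). Genes named after their values were seen were Atf2 and Mafg, which fell in Lipo-TriTE against PBS, and Batf2, Maff and Mafg, which were lower in Lipo-TriTE than in Lipo-BiTE; these last 3 numbered 5 without Lipo-BiTE 3 and at most 1 without Lipo-BiTE 2 or a Lipo-TriTE library.

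Of 28 tested other immediate early genes (31 listed), 22 rose and 0 fell in Lipo-BiTE, with a median log2 fold change of 1.84, and 17 rose and 4 fell in Lipo-TriTE, with a median of 1.02; between the treatments the median was -0.77. Without PBS 1 the latter counts were 11 and 4. Tnfaip3, an inhibitor of NF-kB signalling, was at 41.9 ± 3.29 CPM in PBS, 279.9 ± 127.7 with Lipo-BiTE and 233.7 ± 40.6 with Lipo-TriTE (edgeR adjusted p = 0.000765 and 0.000385 against PBS). Gadd45b, a stress-induced gene that feeds into MAP kinase signals, rose 9.08-fold and 6.42-fold, and Myc, the growth regulator, 4.34-fold and 8.08-fold. Rhob, an immediate early small GTPase, moved in opposite directions: it was at 668.8 ± 69.7 CPM in PBS, 917.1 ± 90.5 with Lipo-BiTE (edgeR adjusted p = 0.0469) and 346.1 ± 23.3 with Lipo-TriTE (edgeR adjusted p = 0.00068). The others that fell in Lipo-TriTE, named after their values were seen, were Cyr61 (log2 fold change -1.42), Ctgf (-1.84) and Dusp6 (-0.51), of which the former pair encode matrix proteins and Dusp6 a phosphatase of ERK kinases. Between the treatments 7 were lower in Lipo-TriTE and 0 higher by edgeR, against 17 lower and 1 higher at an unadjusted p under 0.05 and 11 lower and 0 higher by DESeq2. The number lower was 2 without Lipo-BiTE 2, Lipo-TriTE 2 or Lipo-TriTE 3, 3 without Lipo-BiTE 1, 4 without Lipo-TriTE 1 and 16 without Lipo-BiTE 3.

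Of 21 tested upstream factors and MAP kinases, 1 rose in Lipo-BiTE against PBS, and 3 rose and 3 fell in Lipo-TriTE. These counts were not above the shares of all tested genes, 13.8% higher in Lipo-BiTE, and 18.9% higher and 14.8% lower in Lipo-TriTE. The median log2 values were 0.147, -0.023 and, between the treatments, -0.225. The single rise was 0 without PBS 1, PBS 2 or Lipo-BiTE 1 and 5 without Lipo-BiTE 3, and in Lipo-TriTE 1 rose and 1 fell without PBS 2. Map3k1, a kinase that activates the JNK branch, rose 2.56-fold in Lipo-BiTE and 2.85-fold in Lipo-TriTE (edgeR adjusted p = 0.0195 and 0.00644). Mapk3, which encodes ERK1, was at 234.4 ± 14.3 CPM in PBS, 259.2 ± 16.7 with Lipo-BiTE and 163.8 ± 22.0 with Lipo-TriTE, and fell by 0.52 on the log2 scale in Lipo-TriTE against PBS (edgeR adjusted p = 0.0146). Elk3, an SRF cofactor, fell by 0.53 and Creb1 rose by 0.49 in Lipo-TriTE against PBS (edgeR adjusted p = 0.00887 and 0.00931). The further genes called, named after their values were seen, were Elk4, higher, and Map2k6, lower, against PBS, and Map2k3, lower against Lipo-BiTE together with Mapk3. These last 2 calls numbered 0 without Lipo-BiTE 2 and 1 without Lipo-BiTE 1, Lipo-TriTE 2 or Lipo-TriTE 3.

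Among 11 EGR corepressors and T cell genes known to be bound by EGR factors, 3 rose in Lipo-BiTE and 6 in Lipo-TriTE against PBS, and 0 fell by edgeR or DESeq2 or at an unadjusted p under 0.05. Between the treatments 0 passed by edgeR or DESeq2, with 3 higher and 2 lower in Lipo-TriTE at an unadjusted p under 0.05. With libraries left out, 1 was lower in Lipo-TriTE against PBS without PBS 1, and 1 was lower between the treatments without Lipo-BiTE 1 or without Lipo-TriTE 3. The medians of the 3 log2 differences were 0.549, 0.817 and 0.135. Tnfrsf9, the costimulatory receptor 4-1BB, was at 12.0 ± 1.61, 40.0 ± 6.55 and 53.9 ± 2.68 CPM in PBS, Lipo-BiTE and Lipo-TriTE (edgeR adjusted p = 0.000765 and 3.14e-05 against PBS). Lag3, an inhibitory receptor, rose 5.25-fold and 9.10-fold, and Fasl, the death ligand, 4.69-fold and 7.52-fold. Crtam, an adhesion receptor of activated T cells, rose 1.76-fold in Lipo-TriTE (edgeR adjusted p = 0.0155) and was at a fold of 1.20 in Lipo-BiTE (edgeR adjusted p = 0.437). T cell markers rose in the same groups, as given above, and their part in these values was not tested.

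Of 10 tested genes with known AP-1 control (13 listed), 5 rose and 2 fell in Lipo-BiTE, and 3 rose and 4 fell in Lipo-TriTE. The former counts were 3 and 1 without PBS 1, PBS 3 or Lipo-BiTE 1. Median log2 values were 0.953 and 0.235 against PBS and -0.615 between the treatments. Cd69, an early activation marker of lymphocytes, rose 6.29-fold and 17.1-fold against PBS, and was 2.72-fold higher in Lipo-TriTE than in Lipo-BiTE (edgeR adjusted p = 0.0473). It was the 1 gene of the list called higher between the treatments, and none was called higher there without Lipo-BiTE 2, Lipo-BiTE 3, Lipo-TriTE 1 or Lipo-TriTE 3. Plau, a protease gene named after its values were seen, was the 1 called lower (log2 difference -0.76, edgeR adjusted p = 0.0351). The lower calls numbered 2 without Lipo-BiTE 3, 1 without Lipo-BiTE 1 and 0 without Lipo-BiTE 2 or any Lipo-TriTE library. Tnf, an inflammatory cytokine, rose 9.67-fold and 4.92-fold (edgeR adjusted p = 0.000862 and 0.00214). Ccnd1, which encodes cyclin D1, was at 253.7 ± 4.22 CPM in PBS, 184.7 ± 25.5 with Lipo-BiTE and 151.6 ± 4.21 with Lipo-TriTE, and Mmp3, a matrix protease, at 178.2 ± 30.6, 97.5 ± 12.1 and 98.5 ± 14.2 CPM; both fell in both treatments (edgeR adjusted p of 0.00199 to 0.0372). The list held changes in both directions, and whether its genes followed the factors was not tested.

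Heat shock genes were listed because they, like immediate early genes, are known to respond to cell stress and tissue handling; the time from removal of a tumour to freezing is not stated. Of 9 tested (12 listed), 2 rose and 1 fell in Lipo-BiTE, and 1 rose and 4 fell in Lipo-TriTE. The Lipo-BiTE counts were 1 and 0 when any PBS library, Lipo-BiTE 1 or Lipo-BiTE 2 was left out, and 2 fell in Lipo-TriTE without PBS 2 or Lipo-TriTE 1. Between the treatments Hspa1b and Bag3 were lower in Lipo-TriTE and 0 were higher by edgeR or DESeq2 or at an unadjusted p under 0.05; the 2 lower calls numbered 1 without Lipo-BiTE 2, Lipo-TriTE 1 or Lipo-TriTE 3 and 3 without Lipo-BiTE 1. Median log2 values were -0.041 and -0.338 against PBS and -0.297 between the treatments. Hspa1b, an inducible HSP70 gene with a near-identical neighbour, so that its counts are uncertain, was at 26.7 ± 7.29 CPM in PBS, 604.8 ± 343.3 with Lipo-BiTE and 146.5 ± 18.9 with Lipo-TriTE. It rose 22.6-fold and 5.48-fold against PBS and was 4.13-fold lower in Lipo-TriTE than in Lipo-BiTE (edgeR adjusted p = 0.000765, 0.00173 and 0.0143). That is the order of means of Fos, Fosl2, Jun, Junb, Jund, Egr1 and Egr2. Dnajb1, a co-chaperone named after its values were seen, had the same order, with log2 values of 0.60 and 0.34 against PBS (edgeR adjusted p = 0.0223 for the former, the latter not passing) and -0.26 between the treatments, which did not pass. Other listed genes did not have that order of means: Bag3 was at 123.5 ± 19.9, 120.7 ± 17.9 and 54.3 ± 9.62 CPM, Hsph1 at 193.1 ± 9.21, 184.7 ± 10.8 and 139.4 ± 1.52 CPM, and Hsp90ab1 at 6228 ± 143.6, 5358 ± 669.4 and 4361 ± 458.3 CPM. The part of stress or handling in the levels of the factors was not tested.

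Genes whose pattern lay nearest to a member were ranked by the root mean square difference of log2 CPM, each centred on its mean over the 9 libraries, among 11867 tested genes. This describes these libraries, in which groups and cell make-up differ, and carries no test. Nearest to Fos were Synj1 (0.159), Gzme (0.177), Prkcd (0.186) and Psap (0.189). Gzme was low, at 1.039, 0.9444 and 0.7129 CPM in PBS and 2.358 CPM on average over the 9 libraries, so its pattern is less precise. Synj1, a phosphoinositide phosphatase, was at 27.54, 30.57 and 31.78 CPM in PBS, 155.6, 88.83 and 55.92 CPM in Lipo-BiTE and 76.97, 68.16 and 68.81 CPM in Lipo-TriTE, thus with the same library highest as Fos. Nearest to Fosl1 were Map1b (0.128), Dysf (0.135), Tbx3 (0.14) and Sox9 (0.15). Map1b, a microtubule-associated protein, was at 253.9, 340.3 and 367.8 CPM in PBS, 219.2, 285.5 and 326.1 CPM in Lipo-BiTE and 93.72, 174.5 and 128.2 CPM in Lipo-TriTE. Nearest to Egr2 were Daglb (0.223), Psap (0.245), Serpinb8 (0.247) and Unc119 (0.248), so that Psap, a lysosomal protein precursor, stood among the nearest 4 of both Fos and Egr2. Among the members themselves Jun and Egr1 were nearest (0.193), then Fos and Egr2 (0.229) and Jun and Junb (0.263), whereas Fosl1 was farthest from the rest, at 0.507 from its nearest, Egr3.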

How the data were processed

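RNA-seq read counts per gene were deposited by the authors as one table of whole numbers with 44806 entries and 9 count columns; aligner, counter and their settings are not stated. The columns called untreated were taken as the PBS libraries, an inference from their numbers and the group that remained. The deposited gene lengths and positions are of C57BL/6NJ gene models. Entries without a gene name numbered 3710. From the counts, CPM, fits and tests were computed here in R 4.3.3 with edgeR 4.0.16: filterByExpr kept 16596 genes, libraries were scaled by TMM, and a robust quasi-likelihood F test was run over all 9 libraries with 1 mean per group, with Benjamini-Hochberg adjustment over all tested genes and calls at an adjusted p under 0.05. DESeq2 1.42.0 was an alternative, as were other scalings and filters, 2-group fits, a replicate block and leaving out each library. Each SE was derived from the estimate and its F value. Ratios used CPM plus 0.5 and exact permutation tests over 20 splits. Counts are of reads without molecular identifiers. Promoter windows are from RefSeq (GRCm38.p6).

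The members and gene lists were chosen with earlier results of these data known. Of 104 related symbols 96 stood in the table, 4 of them under older names. All 10 members are named, and from each related list the 4 genes with the smallest p in Lipo-TriTE against PBS, and for Fos, Fosl1 and Egr2 the 4 genes with the nearest pattern among named genes of at least 1 CPM on average. A gene that this rule also picked is not reported here. The list of AP-1 partners shares Batf3 with the dendritic cell markers. Endothelial markers (6 of 6 in the table) summed to 134.9 to 159, 220.4 to 238.1 and 151 to 224.3 CPM in the 3 groups. Libraries within a group differed by more than sampling noise: chi-square divided by its degrees of freedom ran from 5.09 (PBS 2 with PBS 3) to 101. The procedure was first tested on simulated data. There it recovered 50% to 52% of 2-fold and 90% to 92% of 4-fold changes in the 3 comparisons, with 7 to 11 false calls. A difference that did not pass is therefore not shown to be absent.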

Additional observations from a re-analysis of the deposited data

How the results depend on the processing

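Under other scalings, filters, DESeq2, fits of 2 groups, no robust estimation and the replicate block, 6 to 8 factors were higher and 0 lower for Lipo-BiTE against PBS, 4 to 6 higher and 1 lower in Lipo-TriTE against PBS, and 0 higher and 3 to 5 lower between the treatments; no factor changed direction. The counts can hide exchanges: without a filter Fosl2 was lost and Jun gained in Lipo-TriTE against PBS. Without PBS 1 and Lipo-BiTE 1 together, an alternative chosen after seeing the data, 2 were lower in Lipo-TriTE against PBS, and the Fosl1 log2 value for Lipo-BiTE against PBS was 0.026 in place of -0.026. When each library was left out in turn, 2 to 4 were higher and 1 to 2 lower in Lipo-TriTE against PBS, and 1 to 6 lower between the treatments. Over the same leave-outs Fosl1 ran from -0.148 to 0.12 for Lipo-BiTE against PBS, and the log2 ratio of Junb to Jund, -0.13 between the treatments, from -0.32 to 0.064. The cause was not tested, other than that fewer libraries entered these fits.

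With the replicate number as a block the counts were 6 higher, 4 higher and 1 lower, and 3 lower, with Jund in Lipo-BiTE against PBS (edgeR adjusted p = 0.0809) and Egr1 between the treatments (edgeR adjusted p = 0.0579) lost. The labels do not say that the numbers pair libraries; same-numbered libraries correlated at -0.194 to 0.076 in their deviations, and 2 of 9 lay nearest to their own number. Of all genes, 2283 were higher and 534 lower for Lipo-BiTE against PBS, against 2079 and 988 on total counts; 810 were higher and 865 lower between the treatments, against 1099 and 451. Total counts put the median of all genes at -0.16 and 0.11 in these comparisons. Without a filter 839 were lower in Lipo-BiTE against PBS and 1538 higher and 1455 lower between the treatments; DESeq2 gave 1572 higher and fits of 2 groups 510 lower there, and the block 282 lower in Lipo-BiTE against PBS. Without PBS 1 and Lipo-BiTE 1 together, 1277 genes were higher and 44 lower with Lipo-BiTE than with PBS, and 1229 were higher between the treatments. At this depth no factor was limited by low counts; 3 libraries a group limit the precision.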
